A study of Plecoglossus altivelis with 9 samples.

Results

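The 100 probes described here had the largest mean decrease in signal in ayu macrophages at 5.0 µg/ml LECT2 relative to 0 µg/ml, among probes whose arrays at these doses did not overlap. They were chosen from 49077 probes on a custom array. Eligible probes were detected, that is, marked well above background by the extraction software, on each of the 3 arrays at 0 µg/ml and carried no outlier mark on any array, which left 17321 probes. In 1995 of these (11.5% of the eligible probes), the highest of the 3 arrays at 5.0 µg/ml lay below the lowest of the 3 arrays at 0 µg/ml (the opposite held in 14.8%), and the 100 with the largest difference between the means were taken. Since this choice used the arrays at 5.0 and 0 µg/ml, the values at these doses are a description of what was chosen and support nothing further.

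The cells were adherent macrophages from the head kidney of ayu (Plecoglossus altivelis), kept in RPMI medium with fetal calf serum, penicillin and streptomycin. They received LECT2 at 0, 0.5 or 5.0 µg/ml for 3.5 h, with 3 arrays per dose from independent experiments that each used other fish. Total RNA was labelled with Cy3 and hybridized to one-colour arrays. The number of fish behind an array was not given in the sources used here.

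LECT2, leukocyte cell-derived chemotaxin, is a secreted protein known as a chemoattractant and activator of leukocytes. The head kidney is the main blood-forming organ of teleost fish and a rich source of macrophages, phagocytes that take up bacteria and secrete cytokines. The files pair no probe with a gene name, an accession or a sequence, so probes are named by their identifiers, no gene function can be given, and the label macrophage could not be checked against marker genes. Several probes may report the same transcript, which cannot be told apart here. In a bulk sample, fewer cells with a transcript and less transcript per cell also cannot be told apart.

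Every level given here is the log2 of the processed intensity minus the 75th percentile of the same array, so a level of 0 equals that percentile. Between 16531 and 24887 probes per array were detected, and none was saturated. The 75th percentile of intensity lay between 166 and 169 on the arrays at 0 µg/ml, between 139 and 240 at 0.5 µg/ml, and between 187 and 278 at 5.0 µg/ml. Replicate 2 at 0 and at 0.5 µg/ml and replicate 3 at 5.0 µg/ml were read in the smaller of 2 scans, here called the second. The scans are numbered by how many arrays they hold and not by date. Replicate 3 at 5.0 µg/ml was alone on its slide.

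The 100 probes were mostly dim in untreated cells. Their median level at 0 µg/ml was -0.67, compared with 0.92 for the eligible probes, and 28 of the 100 (68.4% of the eligible probes) had a mean level above the 75th percentile. Only 6 had a mean level above 3, and the brightest reached 7.78. Most of the set thus consisted of weak signals, beside a small number of bright ones. With the rows of the array split at the middle, 37 of the 100 lay in the lower-numbered rows (49.4% of the eligible probes). For columns split likewise, it was 51 (50.3%). The highest row number among the 100 was 384, and A_1000000_P0014489, described below, was in row 378. The share of the eligible probes near this edge is not given, and the part of array position in the decreases was not tested.

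The median level of the 100 probes was -0.78, -0.26 and -0.88 on replicates 1, 2 and 3 at 0 µg/ml. At 0.5 µg/ml it was -0.76, -0.96 and -1.45. At 5.0 µg/ml it was -1.92, -1.97 and -2.75. All 3 arrays at 5.0 µg/ml lay below all others, replicate 1 at 0.5 µg/ml lay within the range of the untreated arrays, and replicate 3 at 0.5 µg/ml lay lowest of its dose. The median difference of 5.0 minus 0 µg/ml was -1.61, with quartiles of -1.82 and -1.51 and a range of -2.73 to -1.45, whereas the eligible probes had a median of 0.02. The gap between the highest array at 5.0 µg/ml and the lowest at 0 µg/ml was 0.04 to 1.79 with a median of 0.69, and it exceeded 1 in 14 probes.

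The processed intensity before scaling showed the same order of doses. The median of the 100 probes was 98.2, 139 and 90.2 on the arrays at 0 µg/ml, 82.2, 85.8 and 87.9 at 0.5 µg/ml, and 49.4, 47.9 and 41.3 at 5.0 µg/ml. Without scaling, the 3 arrays at 0.5 µg/ml were thus close to each other, and the array with the highest 75th percentile of each LECT2 dose was the one with the lowest scaled median. The part of the scaling in the spread among arrays was not tested. The median difference of 5.0 minus 0 µg/ml was -1.25 without scaling, which shifts all probes by the same amount. In 78 of the 100, every array at 5.0 µg/ml then lay below every array at 0 µg/ml (3.59% of the eligible probes).

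Loss of detection accompanied most of these differences. At 5.0 µg/ml, 24 of the 100 probes were detected on no array, 36 on 1 array, 14 on 2 arrays and 26 on all 3 arrays. Among the eligible probes, 95.0% were detected on all 3 arrays at 5.0 µg/ml and 0.185% on none. Replicate 1 detected 74 of the 100 probes, replicate 2 detected 38 and replicate 3 detected 30, whereas each of these arrays detected 96.2% to 99.6% of the eligible probes. The lowest level that counted as detected was -2.44, -1.65 and -2.10 on replicates 1, 2 and 3 at 5.0 µg/ml. The replicate with the lowest limit was thus also the one that detected the most of these probes. On the untreated arrays this limit was -2.21, -1.43 and -1.57. A level detected on replicate 1 at 0 µg/ml could thus count as undetected on replicates 2 and 3 at 5.0 µg/ml. An undetected probe was seldom at the lowest value of its array: 6 of the 100 were at that floor on at least 1 array at 5.0 µg/ml, and none on all 3.

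At 0.5 µg/ml, 48 probes were detected on all 3 arrays, 20 on 2, 27 on 1 and 5 on none, compared with 86.2% of the eligible probes on all 3. On replicates 1, 2 and 3 at 0.5 µg/ml, 55, 70 and 86 of the 100 were detected. Replicate 1 had the highest limit of the 9 arrays, -0.88, and replicate 3 the lowest, -2.48, so that the array with the lowest levels of these probes was the one with the most of them detected. Detection held on all 3 arrays at 0.5 µg/ml and was lost on at least 1 array at 5.0 µg/ml in 23 probes. It was lost at both doses in 51 probes, and 1 probe lost it at 0.5 µg/ml alone. The remaining 25 were detected on all 9 arrays.

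The 26 probes detected on all 3 arrays at 5.0 µg/ml give a measured difference. Their mean level at 0 µg/ml lay between -0.08 and 7.78, and they were 2.77 to 4.19-fold lower at 5.0 than at 0 µg/ml, with a median of 2.93-fold. Without scaling, the median difference was -1.19, and 13 of the 26 kept every array at 5.0 µg/ml below every array at 0 µg/ml. The share of the eligible probes without scaling is given above. The 26 were chosen for this on scaled levels of the same arrays, so nothing is read from the count. The brightest of the 26, A_1000000_P0071670, had a level of 7.64, 8.70 and 7.0 on the arrays at 0 µg/ml, 6.62, 8.68 and 5.75 at 0.5 µg/ml, and 5.13, 5.94 and 6.67 at 5.0 µg/ml. Its untreated arrays all lay above those at 5.0 µg/ml, but replicate 3 at 5.0 µg/ml came close to the lowest of them, and the arrays at 0.5 µg/ml spanned both ranges. The difference was -1.87 (SE 0.709), with an adjusted p of 0.253 in limma.

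A_1000000_P0006675, the next brightest, was nearly the same on the 3 untreated arrays, at 6.21, 5.97 and 6.12. It read 6.48, 5.46 and 3.99 at 0.5 µg/ml, and 4.83, 4.37 and 3.22 at 5.0 µg/ml. Replicate 1 at 0.5 µg/ml lay above every untreated array and replicate 3 within the range at 5.0 µg/ml. The difference of 5.0 minus 0 µg/ml was -1.96 (SE 0.575, adjusted p in limma 0.151).

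A_1000000_P0019093 had the largest difference among the 26 probes, with 1.51, 2.14 and 0.76 at 0 µg/ml, 1.01, 1.93 and -0.58 at 0.5 µg/ml, and -0.77, -0.11 and -0.91 at 5.0 µg/ml. At 0.5 µg/ml, replicates 1 and 2 were within the untreated range and replicate 3 was within the range at 5.0 µg/ml. The 4.19-fold difference (log2 difference -2.07, SE 0.577) had an adjusted p of 0.131 in limma.

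A_1000000_P0034565 was called lower. Its levels were 0.76, -0.25 and 0.81 at 0 µg/ml, 0.31, -0.48 and 0.25 at 0.5 µg/ml, and -1.49, -0.93 and -1.64 at 5.0 µg/ml. Replicate 2 was low at 0 and 0.5 µg/ml and high at 5.0 µg/ml, and all 3 arrays at 0.5 µg/ml stayed above all 3 at 5.0 µg/ml. It fell by 1.79 on the log2 scale (SE 0.359, adjusted p in limma 0.048).

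A_1000000_P0020093 was also called, with 0.48, 0.65 and 0.65 at 0 µg/ml, 0.18, -0.08 and -0.44 at 0.5 µg/ml, and -1.66, -1.38 and -0.37 at 5.0 µg/ml. Every array at 0.5 µg/ml was below every untreated array, while replicate 3 at 5.0 µg/ml was above replicate 3 at 0.5 µg/ml. It fell by 1.73 (SE 0.336, adjusted p in limma 0.041). A_1000000_P0036798 was the third call among the 26, with 0.59, 0.39 and 0.32 at 0 µg/ml, 0.49, 0.01 and -0.25 at 0.5 µg/ml, and -0.88, -0.94 and -1.96 at 5.0 µg/ml. Its arrays at 0.5 µg/ml lay apart from those at 5.0 µg/ml and reached into the untreated range through replicate 1. It fell by 1.70 (SE 0.328, adjusted p in limma 0.041).

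The 24 probes detected on no array at 5.0 µg/ml were dim without LECT2 as well, with mean levels of -1.52 to -0.72 at 0 µg/ml, and only a lower bound of their difference can be given. It sets the mean at 0 µg/ml against the mean over the arrays at 5.0 µg/ml of the higher of the probe's own level and the lowest level well above background. This bound, like those given for single probes, was computed on scaled levels only, and its size without scaling was not tested. Over all 100 probes, the median difference was -1.61 with scaling and -1.25 without it. By the bound on scaled levels, the 24 probes were at least 1.45 to 2.54-fold lower, with a median of 1.86-fold. Their measured means gave 2.74 to 6.64-fold, so the differences that rank highest in the set rest on values below the detection limit.

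A_1000000_P0036874, first by size of the difference, had levels of -1.84, -1.09 and -1.36 at 0 µg/ml, 1.38, -1.33 and -4.81 at 0.5 µg/ml, and -4.76, -3.30 and -4.42 at 5.0 µg/ml. The arrays at 0.5 µg/ml ranged from far above the untreated arrays to the floor of replicate 3. The bound was at least 1.55-fold, the measured difference -2.73 had the largest SE of the 100 probes (1.17), and the adjusted p was 0.301 in limma.

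A_1000000_P0014248 had -1.48, 0.04 and -1.29 at 0 µg/ml, -2.09, -3.25 and -1.83 at 0.5 µg/ml, and -2.63, -3.78 and -4.42 at 5.0 µg/ml. All 3 arrays at 0.5 µg/ml were already below the untreated arrays, with replicate 3 alone detected. It was at least 2.23-fold lower at 5.0 than at 0 µg/ml. The adjusted p of 0.053 in limma belongs to the measured difference, -2.70, and not to this bound. A_1000000_P0063187 had -1.13, -0.63 and -1.37 at 0 µg/ml, -2.09, -0.19 and -2.82 at 0.5 µg/ml, and -3.44, -3.16 and -3.67 at 5.0 µg/ml. Replicate 2 at 0.5 µg/ml was above every untreated array and the other two were below them. It was at least 2.03-fold lower at 5.0 than at 0 µg/ml (adjusted p in limma 0.079 for the measured difference, -2.38).

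The number of the 100 probes that passed the test across all probes depended on the fit. In limma with adjustment over 19995 tested probes, 8 of the 100 were called lower at 5.0 than at 0 µg/ml, and 0.095% of all tested probes were called in this direction (0.98% were called higher). The rule used this contrast, so nothing is read from the count. Adjusted p-values of the 100 ran up to 0.425, with 38 under 0.1 and 80 under 0.2, and 97 had an unadjusted p under 0.05 (5.91% of tested probes were lower at that level). Another 11 probes called lower were not among the 100, with differences of -2.67 to -1.14. With the scan as a block 44 of the 100 were called, and with the replicate number as a block 70. Single arrays also moved the count. Without replicate 1, 2 or 3 it was 1, 2 and 1 for the arrays at 0 µg/ml, 4, 31 and 16 for those at 0.5 µg/ml, and 1, 0 and 3 for those at 5.0 µg/ml. The share of all tested probes called in these other fits is not given here, so a higher count is not read as a stronger difference.

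The call with the smallest adjusted p was A_1000000_P0014489, with -1.58, -0.85 and -1.38 at 0 µg/ml, -1.83, -1.60 and -2.35 at 0.5 µg/ml, and -3.20, -3.47 and -3.95 at 5.0 µg/ml. The 3 doses did not overlap, and no array at 5.0 µg/ml detected it. It was at least 1.73-fold lower at 5.0 than at 0 µg/ml (adjusted p in limma 0.0096 for the measured difference, -2.27). A_1000000_P0062685 had -0.61, -0.21 and -0.68 at 0 µg/ml, -0.68, -0.90 and -1.15 at 0.5 µg/ml, and -1.96, -2.0 and -2.66 at 5.0 µg/ml. It kept detection on all 3 arrays at 0.5 µg/ml, where replicate 1 was level with the lowest untreated array. At 5.0 µg/ml it was detected on 1 array, so the measured difference of -1.71 (SE 0.273, adjusted p in limma 0.019) rests in part on values below the detection limit.

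A_1000000_P0023311 was the least variable untreated probe among those detected on no array at 5.0 µg/ml, at -1.38, -1.30 and -1.33. It had -1.76, -2.07 and -2.35 at 0.5 µg/ml, and -2.56, -2.69 and -3.28 at 5.0 µg/ml. Its 3 doses did not overlap either, and the bound was at least 1.66-fold. The measured difference, -1.51, had an adjusted p of 0.028 in limma. A_1000000_P0038632 had -1.07, -0.73 and -1.05 at 0 µg/ml, -0.97, -1.25 and -1.76 at 0.5 µg/ml, and -2.53, -2.33 and -3.89 at 5.0 µg/ml. All its arrays at 0.5 µg/ml stayed above those at 5.0 µg/ml, and it was at least 2.16-fold lower at 5.0 than at 0 µg/ml. The measured difference, -1.96, had an adjusted p of 0.0496 in limma. The last call, A_1000000_P0013664, had an adjusted p of 0.043 in limma. Of the 8 calls, 5 had an adjusted p between 0.04 and 0.05.

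At 0.5 µg/ml, where the choice used the outlier marks but not the levels, the 100 probes lay between the other doses on average. The median levels of their means were -0.67, -1.12 and -2.34 at 0, 0.5 and 5.0 µg/ml. The median difference of 0.5 minus 0 µg/ml was -0.57, with a range of -1.97 to 0.27, compared with 0.03 for the eligible probes. The untreated arrays entered both this difference and the choice of the probes. In 98 probes the mean at 0.5 µg/ml was below the mean at 0 µg/ml (43.1% of the eligible probes). In 96 it lay between the means at 0 and 5.0 µg/ml (26.0% of the eligible probes), nearer the untreated mean in 75 (18.7%) and nearer the mean at 5.0 µg/ml in 21 (7.36%). The choice set the means at 0 and 5.0 µg/ml far apart, which favours a mean between them, so these shares are not independent of it. The difference at 0.5 µg/ml was 32.7% of that at 5.0 µg/ml in the median probe, with quartiles of 17.2% and 48.3%.

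None of the 100 probes was called in limma for 0.5 against 0 µg/ml, where 0% of the tested probes were called lower, and all adjusted p-values were 0.9999. An unadjusted p under 0.05 was reached by 16, lower at 0.5 than at 0 µg/ml in each, against 0.61% of tested probes. The 3 arrays at 0.5 µg/ml lay below all 3 untreated arrays in 18 probes, against 1.46% of the eligible probes. Between 5.0 and 0.5 µg/ml, no probe was called lower either (0% of the tested probes), the lowest adjusted p was 0.0998 in limma, and 59 had an unadjusted p under 0.05 (3.11% of tested probes). The arrays at 5.0 µg/ml lay below all 3 at 0.5 µg/ml in 34 probes, against 4.95% of the eligible probes. Both comparisons share arrays with the choice, so these shares are not independent of it.

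The 3 arrays at 0.5 µg/ml differed in where they placed these probes. On replicate 1, 62 probes were at or above the lowest untreated array, 24 in the gap between the other doses and 14 at or below the highest array at 5.0 µg/ml. On replicate 2 the numbers were 43, 30 and 27, and on replicate 3 they were 16, 42 and 42. In 30 probes, replicate 3 alone reached the range at 5.0 µg/ml, and in no probe did all 3 arrays. The choice of the probes made this gap, and no share of the eligible probes is given beside these counts. They only set the 3 arrays against each other. Against the untreated array of the same number, the median difference was -0.08, -0.60 and -0.75 in replicates 1, 2 and 3, with 59, 86 and 96 probes lower at 0.5 µg/ml. The eligible probes are given for replicate 2 below, as the second scan, and not for replicates 1 and 3. The median difference of 0.5 minus 0 µg/ml without replicate 3 at 0.5 µg/ml was -0.27. As given above, this replicate had the highest 75th percentile of its dose, and the part of that in the difference was not tested.

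Single probes ranged widely at the low dose. A_1000000_P0058325 had the lowest value of 0.5 minus 0 µg/ml among the 100, -1.97, with levels of -2.03, -0.97 and -0.69 at 0 µg/ml, -3.11, -1.68 and -4.81 at 0.5 µg/ml, and -3.08, -2.33 and -3.65 at 5.0 µg/ml. No array at either LECT2 dose detected it, so the order of these doses was not measurable. A_1000000_P0002373 was similar, at -1.67, 0.14 and -1.50, then -3.20, -3.79 and -1.89, then -2.43, -3.29 and -2.88 at 0, 0.5 and 5.0 µg/ml. Its mean at 0.5 µg/ml was likewise below that at 5.0 µg/ml, and it was detected on 1 array at each LECT2 dose.

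At the other end, A_1000000_P0016500 had -1.54, -1.21 and -0.95 at 0 µg/ml, -1.37, -0.03 and -1.51 at 0.5 µg/ml, and -2.43, -3.07 and -2.58 at 5.0 µg/ml. No array at 0.5 µg/ml was below the untreated range, and its mean was 0.27 above the untreated mean. A_1000000_P0054554 had -1.32, -0.68 and -1.45 at 0 µg/ml, -0.46, -1.10 and -1.53 at 0.5 µg/ml, and -1.93, -3.23 and -2.66 at 5.0 µg/ml. Its difference of 0.5 minus 0 µg/ml was 0.12, within the spread of the replicates. These were the only 2 of the 100 probes with a higher mean at 0.5 than at 0 µg/ml.

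In 6 probes the 3 doses did not overlap in either step, against 0.271% of the eligible probes. The choice required separate arrays at 0 and 5.0 µg/ml, met by 11.5% of the eligible probes, so this share is not independent of it. Along with A_1000000_P0014489 and A_1000000_P0023311 the 6 probes were A_1000000_P0013664, A_1000000_P0012293, A_1000000_P0064511 and A_1000000_P0022384, of which the last 3 were picked out after their values were seen. A_1000000_P0013664, one of them, had -0.81, -1.10 and -1.09 at 0 µg/ml, -1.63, -1.68 and -1.38 at 0.5 µg/ml, and -2.07, -2.52 and -3.41 at 5.0 µg/ml. This probe was detected on 1 array at each LECT2 dose. None of the 6 was detected on all 3 arrays at 0.5 or at 5.0 µg/ml, so the order of the LECT2 doses in them rests in part on values below the detection limit.

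The spread among the 3 arrays of a dose was wider in these probes than in the eligible probes as a whole. The median SD was 0.371, 0.673 and 0.650 on the log2 scale at 0, 0.5 and 5.0 µg/ml, compared with 0.332, 0.391 and 0.262 in the eligible probes. The 100 probes were also dimmer at 0 µg/ml (median level -0.67 against 0.92), and the spread was not compared at equal levels. The choice used the arrays at 0 and 5.0 µg/ml, so the SDs at these doses are not independent of it. The error that the extraction software assigns to a spot was 14.0% of the signal at 0 µg/ml in the median and 23.7% at 5.0 µg/ml.

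Over the 100 probes, single arrays carried more of the difference than others. Replicate 2 was the highest of the untreated arrays in 60 of the 100 probes (32.3% of the eligible probes), and replicate 3 the lowest of the arrays at 5.0 µg/ml in 62 (49.3% of the eligible probes). The 26 probes detected on all 3 arrays at 5.0 µg/ml did not show this. In them, replicate 2 was the highest untreated array in 10 and the lowest in 12. Replicate 3 at 5.0 µg/ml was the lowest of its dose in 11 and the highest in 12. Replicate 2 at 0 µg/ml and replicate 3 at 5.0 µg/ml were both read in the second scan. Leaving out both leaves only the arrays of the first scan at these doses. The median difference of 5.0 minus 0 µg/ml was then -1.34 over 2 arrays each. Within the second scan it was -2.40 over 1 array each. That both are below 0 follows from the choice of the probes. For 0.5 minus 0 µg/ml the medians were -0.60 in the second scan and -0.51 in the first, with 86 and 93 probes lower. Of the 17321 eligible probes, 5023 and 9695 were lower in the second and first scan, with medians of 0.16 and -0.03.

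In another 3 probes, picked out after their values were seen, 1 array stood far from the others of its dose. A_1000000_P0014351 had -0.34, 0.22 and 3.41 at 0 µg/ml, -0.79, 0.30 and -0.81 at 0.5 µg/ml, and -0.44, -0.88 and -0.38 at 5.0 µg/ml. Replicate 3 at 0 µg/ml stood far above the other arrays, which lay between -0.88 and 0.30, and the adjusted p for 5.0 against 0 µg/ml was 0.350 in limma. A_1000000_P0007033 had 3.82, 5.31 and 3.61 at 0 µg/ml, 3.84, 5.11 and 1.90 at 0.5 µg/ml, and 2.29, 2.76 and 3.20 at 5.0 µg/ml. A_1000000_P0018291 had 0.83, 2.90 and 0.37 at 0 µg/ml, 1.45, 2.92 and -0.66 at 0.5 µg/ml, and -0.03, -0.07 and -0.21 at 5.0 µg/ml. Replicate 2 stood high at 0 and 0.5 µg/ml alike in these last probes, and replicate 3 at 0.5 µg/ml lay below all 3 arrays at 5.0 µg/ml. Replicate 2 was the highest array at both doses in 26 of the 100 probes and in 25.6% of the eligible ones.

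The limit of 100 probes did not mark a step in the values. Just inside it, A_1000000_P0018200 and A_1000000_P0033641 both had a difference of -1.45 for 5.0 minus 0 µg/ml. Just outside it, A_1000000_P0013487 and A_1000000_P0015762 both had -1.44. Repeating the choice with other processing returned 99 of the 100 probes with the 75th percentile taken over the probes detected on all 9 arrays, 90 with the authors' values, 80 with quantile normalization and 78 without scaling between arrays. Normexp background correction of the median signals, with an offset of 50 and then quantile normalization, returned 23. The median processed intensity of the 100 probes at 5.0 µg/ml was 41.3 to 49.4, so the offset was not small beside it. The parts of the offset, the background correction and the quantile step were not tested apart. Leaving out 1 array returned 70, 37 and 19 without replicates 1, 2 and 3 at 0 µg/ml. It returned 72, 73 and 46 without replicates 1, 2 and 3 at 5.0 µg/ml. Whether other probes newly met the rule or the order of the differences changed was not tested.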

How the data were processed

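The titles of the 9 arrays gave dose and replicate number. One label field gives 0 µg/ml for all samples, and the labelled RNA extraction text describes plant material, so neither was used. The authors deposited scanner files with a processed intensity per spot, extracted with Agilent Feature Extraction 10.7.3.1 per the submitters' processing notes. This intensity is corrected for background within an array and not normalized between arrays. The values of replicate 3 at 5.0 µg/ml were stored with 3 significant digits. A further table that the authors deposited holds the processed intensity times 1 constant per array, rounded and with a ceiling. It was used as an alternative only.

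Control spots (1319 per array) and spots with an outlier mark were left out of the fits. The log2 intensity minus the 75th percentile of the array was used. Probes were tested if every array of 1 or more doses detected them (19995 probes). Doses were compared with limma 3.58.1 in R 4.3.3, two-sided, on all 9 arrays with Benjamini-Hochberg adjustment, and an adjusted p under 0.05 was called. The test was checked on simulated data with noise drawn independently for each array, so the check does not cover deviations shared between arrays. The 100 probes, the lists and the tests were chosen with earlier results of these data known. Named were the 5 probes with the largest decrease among those detected on all 3 arrays at 5.0 µg/ml, the 3 with the largest among those detected on none, the 2 brightest, the 2 lowest and 2 highest at 0.5 µg/ml, 2 on each side of the limit, and the 3 calls with the smallest adjusted p. The remaining calls and the probes said to be picked out were named in addition. Gene and marker lists were not run, since no probe has a gene name. The number of arrays limits the precision. Whether the replicate numbers pair the arrays was checked over 19806 probes without outlier marks: deviations of equal-numbered arrays from their dose mean had correlations of 0.380, 0.812 and 0.680 between 0 and 0.5 µg/ml. Replicate 1 at 0 µg/ml correlated more with replicate 3 at 0.5 µg/ml (0.545), and replicate 3 at 0 µg/ml less with replicate 1 at 0.5 µg/ml (0.150). The arrays of each equal-numbered pair also shared a scan, so these correlations do not separate number from scan. Whether the numbers pair the arrays was thus not settled, and no source states it. The reported fit has no replicate block, and the fit with it was run as an alternative.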

Additional observations from a re-analysis of the deposited data

How the results depend on the processing

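The number of the 100 probes called lower at 5.0 than at 0 µg/ml, 8, was 10 with the percentile taken over probes detected on all 9 arrays, 3 with quantile normalization, 2 with the authors' values, 4 with normexp on the median signals, 0 with no filter on dim probes, 3 with only the probes detected on all 9 arrays (25 of the 100 were then tested), 30 with only the 6 arrays compared, 44 with the scan as a block, 14 with the first scan alone, 5 with a variance trend, and 0 to 31 without 1 array. A fit with the replicate block gave 70, although equal-numbered arrays deviated together with 5.0 µg/ml only in part (correlations of 0.407, 0.147 and -0.111 with 0 µg/ml). For 0.5 against 0 µg/ml the count of 0 was the same in all 22 alternatives, the replicate block included. For 5.0 against 0.5 µg/ml the count of 0 was 9 with the replicate block, 2 with the scan as a block and 0 to 1 without 1 array, and 0 in the others. Of the alternatives added after seeing the data, leaving out replicate 2 at 0 and 0.5 µg/ml together gave 14 calls for 5.0 against 0 µg/ml and no scaling gave 2. The cause of these changes was not tested, and some settings removed probes or arrays. These counts also stand without the share of all tested probes called in the same fit.

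The median difference of 0.5 minus 0 µg/ml, -0.57, was -0.22 with normexp and lay between -0.70 and -0.27 without 1 array. The normexp setting here and below includes the offset of 50 and the quantile normalization. Counting only values at the floor in place of the background mark, 6 and not 74 probes lost detection at 5.0 µg/ml. Of the 100 probes, 23 were chosen again with normexp, 41 when 2 of the 3 untreated arrays had to be well above background, 25 when all 9 arrays had to be, 30 without replicate 2 at 0 µg/ml and replicate 3 at 5.0 µg/ml together (added after seeing the data), and 19 to 73 without 1 array. For the 19 named probes, 404 refits of single probes for 5.0 against 0 µg/ml lost the call in 49 and gained it in 26. Only named probes called in the reported fit could lose a call. It was lost and kept in 4 and 17 refits of A_1000000_P0014489, 10 and 11 of A_1000000_P0062685, and 12 and 9 of A_1000000_P0023311. For A_1000000_P0034565 the numbers were 11 and 11, and for A_1000000_P0020093 12 and 10. The sign of the difference in the refits says nothing about stability, since the named probes were ranked among those whose arrays at both doses did not overlap. The median difference of 5.0 minus 0 µg/ml over all tested probes was 0.06, 0.28 with the authors' values and 0.41 without scaling. Signal near background limits what the dim probes can show.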
